A study of Homo sapiens with 14 samples.

Results

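The cytosolic ribosomal protein genes encode the protein part of the ribosome, the particle that reads messenger RNA into protein in the cytosol. They were chosen by name: protein-coding genes of chromosomes 1 to 22 and X in the RefSeq annotation of GRCh38 whose symbol is RPL or RPS with a number and at most 1 final letter A, X or L, plus RPLP0, RPLP1, RPLP2 and RPSA. This gave 81 of 19974 protein-coding genes, 49 for proteins of the large subunit and 32 for proteins of the small subunit. They lie on 21 chromosomes, with 12 on chromosome 19 and 8 on chromosome 3. Their median length was 5015 bp, against 24170.5 bp over all protein-coding genes, and 29 of them hold 60 annotated snoRNA genes.

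Binding of SATB1, CTCF and Matrin 3 and the histone mark H3K27ac were mapped by CUT&Tag, in which an antibody holds the Tn5 transposase on chromatin and the DNA beside it is cut and tagged, in Jurkat, a human line from a T cell acute lymphoblastic leukaemia. Cells had been infected with lentivirus carrying a control shRNA (shCtrl) or an shRNA that knocks down SATB1 (shSATB1). There were 2 SATB1 libraries (shCtrl), 2 H3K27ac libraries in each arm, 3 CTCF libraries in each arm and 2 Matrin 3 libraries whose labels give no shRNA. The labels do not say whether replicates were grown apart, so each p-value below measures the spread from library to library, part or all of which may be technical. No knockdown level was used here.

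Most of these proteins have a fixed place on the ribosome and are made in matched amounts, while a few members are paralogs made in particular tissues or states. Most of these genes are short, strongly transcribed in dividing cells and carry a start made of a cytosine and further pyrimidines, the 5′ terminal oligopyrimidine (TOP) sequence, through which translation of their messenger RNAs follows growth signals. SATB1 is a chromatin organiser of T lineage cells, CTCF binds a long DNA motif and anchors chromatin loops and domain borders, Matrin 3 is a nuclear matrix protein that binds RNA, and H3K27ac marks active promoters and enhancers.

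A gene was called in a library if a deposited peak lay within 2 kb of either annotated end. The 14 lists held between 2105 peaks (the shorter Matrin 3 list) and 32540 peaks (CTCF, shCtrl replicate 3). The CTCF lists were longer in shCtrl, at 31270, 31141 and 32540 peaks, than in shSATB1, at 14695, 17904 and 20284 peaks, so a CTCF call missing from shSATB1 is also missing from a shorter list. The 2 SATB1 lists shared 40.8% of their exact peak starts, against at most 1.03% for any other pair of lists, and were counted as 1 sample. All 8 T cell marker genes examined, CD3D and BCL11B among them, were called for H3K27ac in both shCtrl lists, against 1 of 5 B cell, 0 of 5 myeloid and 0 of 3 erythroid markers.

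The sequences below show the annotated starts of ribosomal protein genes at which CTCF peaks were present in shCtrl and missing in shSATB1. Each line gives bases from 80 before the start to 20 from the start onwards, 5′ to 3′ on the gene's strand, from RefSeq (GRCh38.p14). Capitals mark the pyrimidine run that opens at the annotated start, the first base of the transcript.
RPS6 (chr9:19380217-19380316, minus strand): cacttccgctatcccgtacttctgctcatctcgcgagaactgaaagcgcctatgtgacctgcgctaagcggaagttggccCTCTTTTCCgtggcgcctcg
RPS23 (chr5:82278335-82278434, minus strand): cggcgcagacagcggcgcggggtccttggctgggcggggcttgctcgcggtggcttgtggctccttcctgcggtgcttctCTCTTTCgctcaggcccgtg
RPL21 (chr13:27251478-27251577, plus strand): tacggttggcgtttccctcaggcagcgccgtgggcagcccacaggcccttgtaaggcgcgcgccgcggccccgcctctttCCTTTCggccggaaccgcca
RPL14 (chr3:40457259-40457358, plus strand): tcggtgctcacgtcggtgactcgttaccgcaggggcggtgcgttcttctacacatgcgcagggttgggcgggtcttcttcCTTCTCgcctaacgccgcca
RPL35A (chr3:197950110-197950209, plus strand): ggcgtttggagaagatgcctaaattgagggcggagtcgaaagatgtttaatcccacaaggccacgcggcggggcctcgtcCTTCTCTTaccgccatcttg
At the starts of RPS6, RPS23, RPL21 and RPL14 a CTCF peak covered the first base in 3 of 3 shCtrl lists and 0 of 3 shSATB1 lists; at RPL35A it did so in 2 of 3 and 0 of 3. The first 3 of these genes carried SATB1 over the same base in both lists, and RPL14 and RPL35A carried it in neither.

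The next set shows starts at which CTCF peaks covered the first base in all 6 CTCF lists, for comparison with the set above.
RPL41 (chr12:56116553-56116652, plus strand): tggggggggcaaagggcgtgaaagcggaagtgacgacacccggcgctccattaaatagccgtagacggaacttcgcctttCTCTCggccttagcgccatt
RPL26 (chr17:8383174-8383273, minus strand): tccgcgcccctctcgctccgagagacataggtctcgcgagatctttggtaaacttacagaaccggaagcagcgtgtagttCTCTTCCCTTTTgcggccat
RPL36 (chr19:5690215-5690314, plus strand): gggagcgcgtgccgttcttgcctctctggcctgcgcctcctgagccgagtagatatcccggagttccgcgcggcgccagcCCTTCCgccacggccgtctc
RPL28 (chr19:55385852-55385951, plus strand): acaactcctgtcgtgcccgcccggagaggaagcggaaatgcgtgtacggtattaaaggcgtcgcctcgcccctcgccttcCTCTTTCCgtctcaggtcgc
RPS19 (chr19:41860175-41860274, plus strand): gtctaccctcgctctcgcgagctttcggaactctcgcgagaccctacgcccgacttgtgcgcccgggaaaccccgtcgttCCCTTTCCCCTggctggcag
RPL41, RPL28 and RPS19 also had SATB1 over the first base in both lists, while RPL26 and RPL36 had none. The palindrome of TCTCG followed by its reverse complement CGAGA occurs in the printed sequence of RPS6, where CTCF peaks were missing in shSATB1, and in those of RPL26 and RPS19, where they stayed.

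A pyrimidine start, defined here as C followed by at least 4 pyrimidines at the first base, was found at 46 of the 64 ribosomal protein genes for which the promoter table held a sequence, 71.9%, against 6.24% of 15813 genes. It was present at 22 of 30 genes with SATB1 in both lists and 24 of 34 others. Among genes with a sequence it was present at 8 of the 10 where CTCF calls were lost in shSATB1 and 30 of the 44 with CTCF in every list. The 300 bases around the start (250 before, 50 after) were searched on both strands for motifs. A gene was counted if any of its annotated starts held the motif or the pyrimidine start, so genes with more starts had more chances. CCGGAAG, a motif of ETS factors, was at 35.9% of ribosomal protein genes and 16.5% of all genes with a sequence. The palindrome of TCTCG and CGAGA was at 6.25% (RPL17, RPL26, RPS19 and RPS6) and 0.727%. AAGATGGCG, a YY1 motif, was in 7.81% and 3.21%, CTTTCC in 46.9% and 32.0%, and CTTTTC in 32.8% and 24.3%; both of the last can overlap the pyrimidine start. GGGCGG, an SP1 motif, was in 59.4% against 64.3%, TATAAA in 9.38% against 12.4%, GGTGGC in 31.2% against 32.2%, the NRF1 motif (GCGCA followed by TGCGC) in 1.56% against 1.99%, and the core of the CTCF motif in 4.69% against 7.26%. The 3 genes with the CTCF core were RPL29, RPL38 and RPLP0.

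Most ribosomal protein genes carried H3K27ac and CTCF at an end in shCtrl cells, and Matrin 3 in its longer list, whose cells have no shRNA on the label. Fewer than 1 in 2 carried SATB1 in both of its lists. H3K27ac was called in both shCtrl lists at 68 of 81 genes, 84.0%, against 38.8% of all protein-coding genes. CTCF was called in all 3 shCtrl lists at 78 of 81, 96.3%, against 58.0%. Matrin 3 was called at 72 of 81 in the longer list, 88.9% against 49.3%, and at 10 in the shorter, 12.3% against 7.92%; the same 10 were in both lists, against 7.85%. SATB1 was called in both lists at 37 of 81, 45.7%, against 24.5% of all protein-coding genes. In the single lists it was called at 40 and 41 of 81, 49.4% and 50.6%, against 27.2% and 26.5%.

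**Figure D1:**
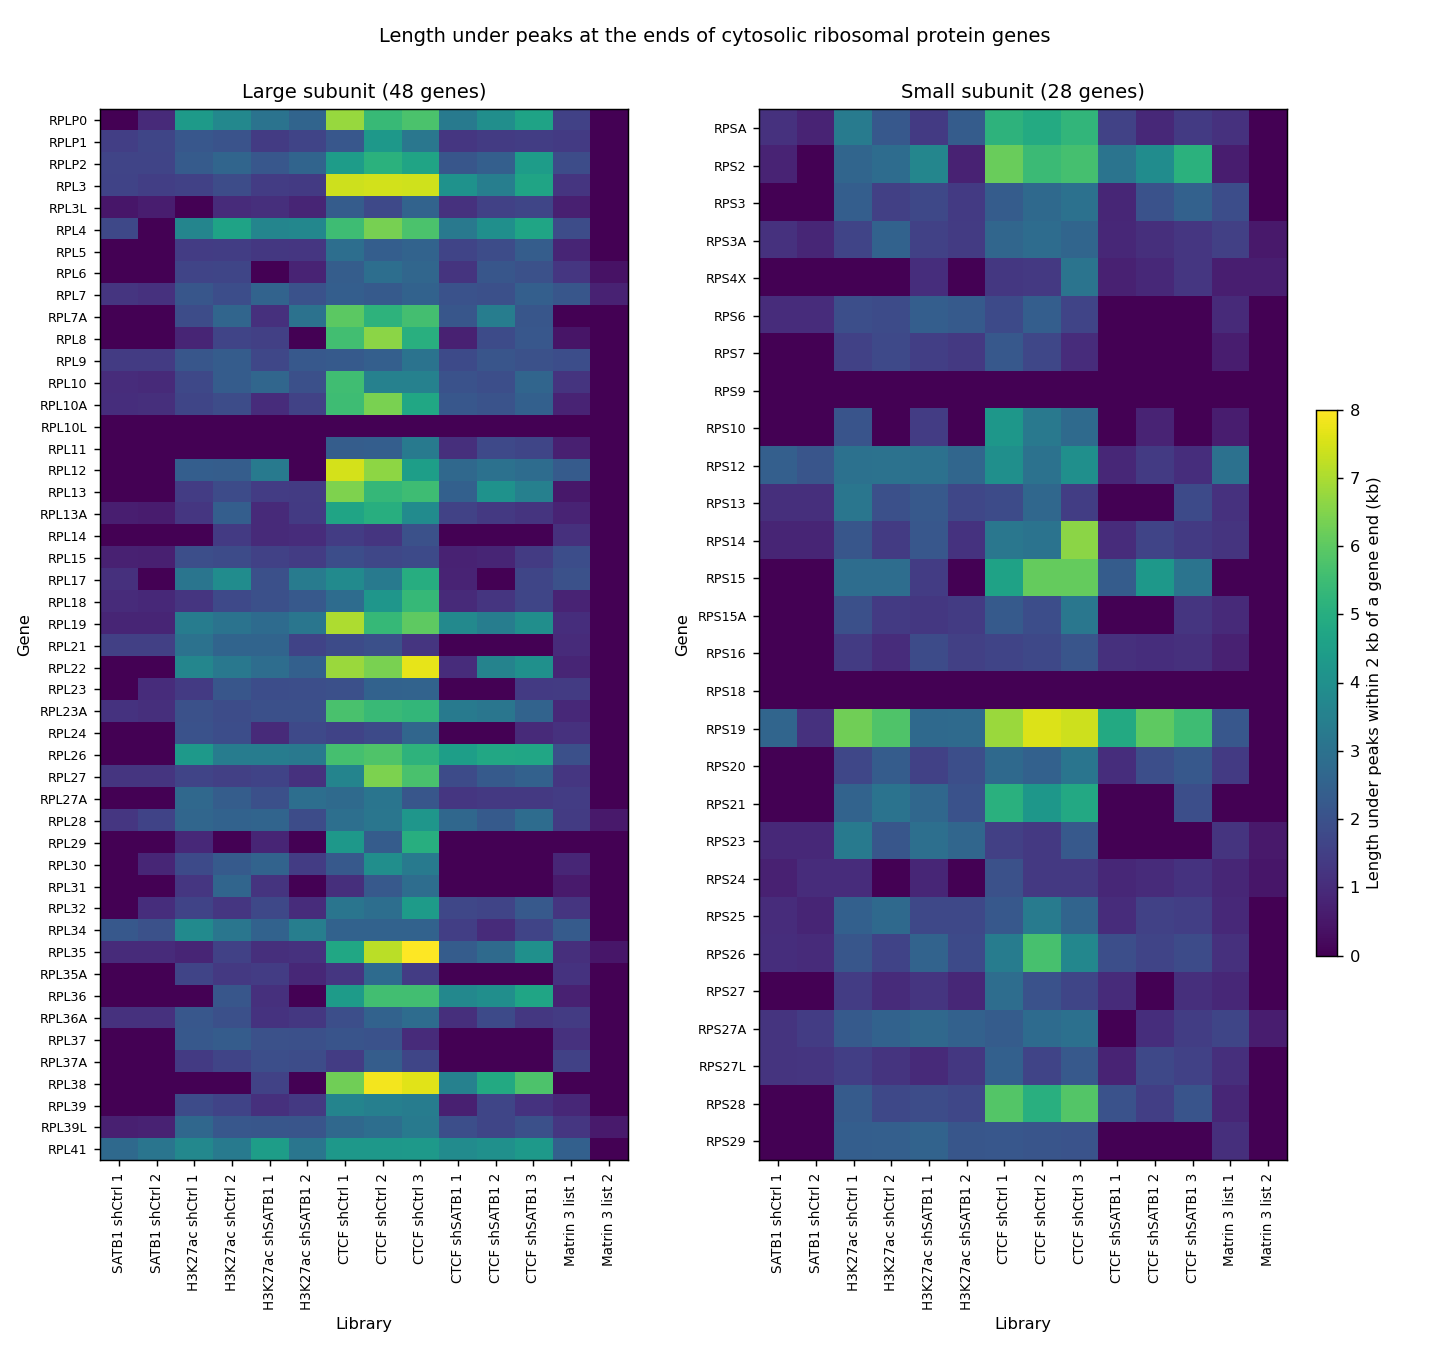
Length of DNA under peaks (kb, colour) within 2 kb of a gene end, for 76 of the 81 ribosomal protein genes (rows, large subunit left, small subunit right) in each of the 14 peak lists (columns). RPL10L, RPS9 and RPS18 are at 0 in every list, and CTCF lengths are greater in the 3 shCtrl than in the 3 shSATB1 lists at most genes.

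The family differed from all genes much as genes with H3K27ac did. Of the 7744 protein-coding genes with H3K27ac in both shCtrl lists, 57.5% carried SATB1 in both lists, while 35 of the 68 ribosomal protein genes with H3K27ac did, 51.5%. Matrin 3 was in the longer list at 65 of those 68 genes, 95.6%, against 94.1% of all genes with H3K27ac. All 4 proteins and marks together were found at 35 ribosomal protein genes, 43.2% against 21.7% of all protein-coding genes. Another 30 genes carried H3K27ac, CTCF and Matrin 3 without SATB1 in both lists, 5 carried CTCF and Matrin 3, 3 carried H3K27ac and CTCF, 3 carried CTCF only, 2 carried SATB1, CTCF and Matrin 3, and 3 carried none. SATB1 was in both lists at 22 of 49 genes of the large and 15 of 32 of the small subunit. Of genes up to 10 kb long 18.4% had SATB1 in both lists, as did 32 of the 70 ribosomal protein genes of that length, 45.7%.

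**Figure D2:**
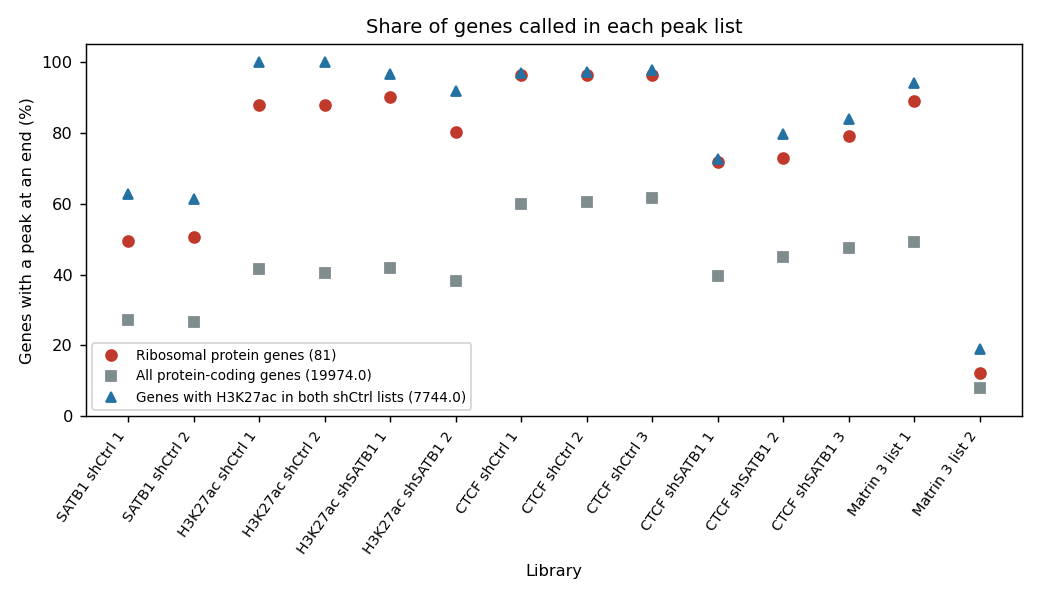
Percentage of genes with a peak within 2 kb of an end (vertical axis, linear) in each library (horizontal axis), for the 81 ribosomal protein genes (circles), all 19974 protein-coding genes (squares) and the 7744 genes with H3K27ac in both shCtrl lists (triangles). Ribosomal protein genes lie above all genes in every list and at or below the H3K27ac genes, and for CTCF they go from 96.3% in each shCtrl list to between 71.6% and 79.0% in shSATB1.

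Most peaks lay at the transcription start. The maximum of the highest peak was at a median distance of -119 and -173.5 bp from the nearest annotated start (negative is upstream) in the 2 SATB1 lists, -72.0 bp in both H3K27ac shCtrl lists and -79.0 to -85.0 bp in the CTCF shCtrl lists. In the longer Matrin 3 list it was -87.5 bp, with 54 of 56 genes within 500 bp. SATB1 maxima lay within 500 bp of a start at 29 of 32 and 32 of 32 genes with a known strand. Among the 43 ribosomal protein genes longer than 4 kb with a known strand, SATB1 was at both ends of 1 and 0 genes, H3K27ac of 4 in each shCtrl list, and CTCF of 15, 18 and 19. The longer Matrin 3 list had peaks at both ends of 4. CTCF thus most often also reached the far end, and in shSATB1 it did so at 8, 10 and 10 of the 43. Its shCtrl lists also held the most and the widest peaks, with median widths of 2371 to 2559 bp, against 1241 and 1228.5 bp for SATB1. No share over all genes of this length was taken, so these counts cannot be called a trait of the family. The part of list length and peak width was not tested.

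**Figure D3:**
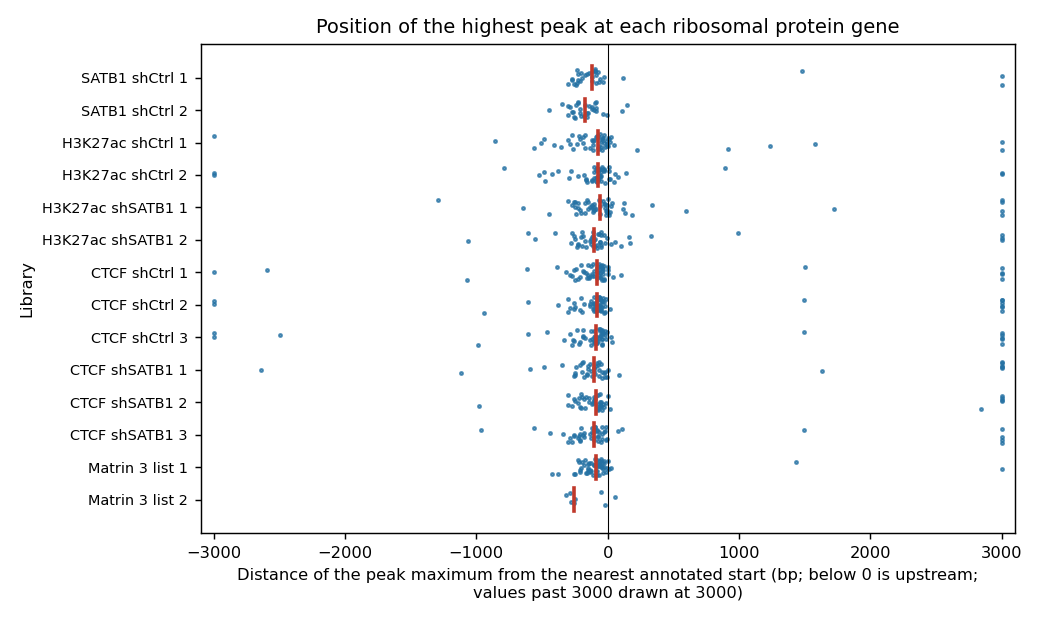
Distance in bp from the nearest annotated start to the maximum of the highest peak at each ribosomal protein gene (horizontal axis, linear, negative upstream; more distant values drawn at the edge) in each library (vertical axis); points are genes and red bars medians. Medians lie between -61.0 and -173.5 bp in all lists but the shorter Matrin 3 list, which holds 8 such genes and has a median of -254.5 bp.

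SATB1 was strongest, by the rank of its peak maximum within each list, at RPL28, a large-subunit protein gene on chromosome 19 (chr19:55385932-55403342). Its peak stood at the 96.5 and 96.1 percentile of the 2 lists and covered 1276 and 1601 bp. RPL18 followed at a mean percentile of 93.7, RPL35 at 92.4, RPL41 at 88.8 and RPL3 at 86.6. RPL13A (82.9), RPSA (81.5) and RPL23A (78.4, the same as RPL39L) were among the upper 10 too. Of these 8 genes, RPSA encodes a protein of the small subunit and the others proteins of the large. RPL28, RPL18 and RPL13A lie on chromosome 19, where 7 of 12 ribosomal protein genes had SATB1 in both lists. The median percentile over all ribosomal protein genes with a SATB1 peak was 62.1 and 53.6 in the 2 lists, near the 58.6 and 57.9 of all genes called.

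The shorter Matrin 3 list had peaks at RPS24, RPL6, RPL28, RPS27A, RPL39L, RPS3A, RPS23, RPL7, RPL35 and RPS4X. The length under these peaks ran from 388 bp at RPL6 to 755 bp at RPL7. All 10 were in the longer list too, where RPL28 stood at the 95.4, RPL35 at the 93.9 and RPS24 at the 93.8 percentile.

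CTCF calls were fewer at ribosomal protein genes in shSATB1. The number called was 78, 78 and 78 in the shCtrl lists and 58, 59 and 64 in the shSATB1 lists, that is, from 96.3% to 71.6%, 72.8% and 79.0%. Over all protein-coding genes the share called was 60.0%, 60.4% and 61.5% in shCtrl and 39.7%, 44.9% and 47.5% in shSATB1. CTCF was termed lost at a gene called in all 3 shCtrl lists and no shSATB1 list, at either end. This held for 12 of 78 genes, 15.4%, close to the 14.8% of all genes with CTCF in every shCtrl list. The peaks need not be at the same end: at RPL35A they lay at the start in shCtrl replicates 1 and 3 and at the far end in replicate 2. The 12 were RPL14, RPL21, RPL29, RPL30, RPL31, RPL35A, RPL37 and RPL37A of the large subunit, and RPS6, RPS7, RPS23 and RPS29 of the small. No ribosomal protein gene gained CTCF, and neither did any other gene (0.0%). CTCF stayed in all 6 lists at 56 of 78 genes, 71.8% against 65.4%. With every list reduced to its 14695 highest peaks, the length of the shortest, 2 of 60 were lost, RPL14 and RPS6, 3.33% against 4.06% of all genes, and 0 of 8 were gained, against 0.561%. The other 10 genes were not called in every shCtrl list once the lists were reduced.

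The genes that lost CTCF had lower CTCF peaks in control cells. Their mean percentile in the shCtrl lists had a median of 51.9 and a range of 30.4 to 71.2, against a median of 91.4 and a range of 48.0 to 99.9 for the 56 that kept CTCF in every list. Over all genes the medians were 34.2 for lost and 85.7 for kept. The highest CTCF peaks of the family, by percentile in shCtrl replicate 1, were at RPL26 (99.8), RPL5 (99.7), RPL36 (99.7), RPL39L (99.4) and RPL10A (99.3), and all 5 were called in every shSATB1 list. Genes with SATB1 in both lists lost CTCF at 3 of 37 (RPL21, RPS6 and RPS23), 8.11% against 5.46% of all genes with both, and genes without at 9 of 41, 22.0% against 21.3%. Genes with a protein-coding neighbour within 2 kb, read-through genes such as RPS10-NUDT3 included, lost it at 2 of 36, 5.56% against 11.7%, and genes without one at 10 of 42, 23.8% against 17.5%. On chromosome 19 it was lost at 0 of 11 genes, 0.0% against 8.3%. Of genes with H3K27ac in both shCtrl lists, 10 of 68 lost CTCF, 14.7% against 9.93%, and of genes up to 10 kb long 9 of 67, 13.4% against 13.2%. These shares were not tested against each other.

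RPL29 (chr3:51993522-51995895), whose product, a large-subunit protein, also binds heparin, had 4260, 2318 and 5019 bp under CTCF peaks in shCtrl and 0 bp in each shSATB1 list. RPL30 (chr8:98041721-98045545) had 2228, 3945 and 3251 bp, then 0 bp in each. RPS29 (chr14:49570988-49598710), a zinc-binding protein of the small subunit, had 2184, 2103 and 2049 bp, then 0 bp in each. At all 3 genes every shCtrl library was above every shSATB1 library, which follows from the rule for lost genes. RPS29 varied least between control libraries. RPL31 (chr2:101002289-101019724) had 1077, 2221 and 2848 bp, then 0 bp. RPS6 (chr9:19375715-19380236), the ribosomal protein that is phosphorylated downstream of mTOR, had 1788, 2382 and 1647 bp, then 0 bp. With all protein-coding genes in 1 limma fit of log2(bp + 100), the adjusted p (Benjamini-Hochberg) was 8.56e-05 for RPL29, 3.04e-05 for RPL30, 6.61e-06 for RPS29, 0.000445 for RPL31 and 1.59e-05 for RPS6. No fold change is given for these 5, since one arm is at 0. With windows of 5 kb RPL29 and RPL30 no longer counted as lost, as a CTCF peak lay in the wider window in at least 1 shSATB1 list. RPS29, RPL31 and RPS6 still did. With lists of equal length RPL30 and RPL31 no longer passed (adjusted p of 0.138 and 0.137 in limma), RPL29 and RPS29 had too little length to be tested, and RPS6 still passed with 8.66e-05.

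**Figure D4:**
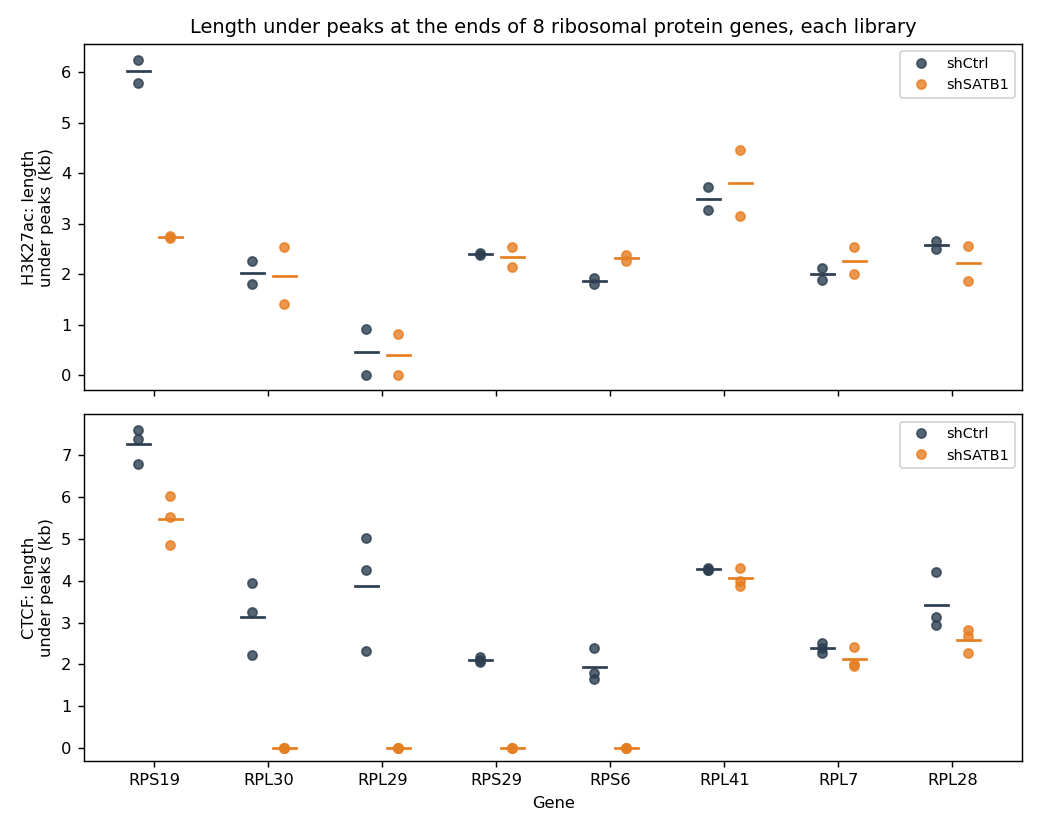
Length under H3K27ac peaks (upper panel) and CTCF peaks (lower panel) in kb (vertical axes, linear) at 8 ribosomal protein genes (horizontal axis); points are libraries, short bars the arm means, shCtrl dark and shSATB1 orange. RPL29, RPL30, RPS29 and RPS6 are at 0 for CTCF in all 3 shSATB1 libraries, and at RPL41 the arms lie close for CTCF.

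The length under CTCF peaks was lower in shSATB1 at 46 of 78 ribosomal protein genes, 59%, against 42.8% of 12265 genes tested, and higher at 0, against 0.0% (limma, adjusted p under 0.05). The median log2 difference in length was -1.09 over the ribosomal protein genes and -1.04 over all genes tested. It was -1.10 and -0.96 for the ribosomal protein genes with offsets of 50 and 500 bp. Once each library was centred on its median over the genes tested, which left a median of -0.13 over all genes, 12 of 78 were lower, 15.4% against 15.1%, and 5 higher, against 6.18%. RPL41, RPL26, RPL36 and RPL7 were among the 5. Lists of equal length gave 23 of 71 lower, 32.4% against 19.6%, and 0 higher, against 0.621%. The count of 46 dropped to 30 without shCtrl replicate 2, 38.5% against 30.4% of all genes tested. Without shCtrl replicate 3 it dropped to 29, 37.2% against 28.2%, so the share over all genes fell too.

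Among genes that kept a peak, RPSA, which encodes a small-subunit protein also known as a laminin receptor, had 5157, 4876 and 5272 bp under CTCF peaks in shCtrl and 1578, 930 and 1348 bp in shSATB1. The log2 difference in length was -1.94 ± 0.21 (SE), with a limma adjusted p of 0.00141. RPL13A, also a member of a complex that silences inflammatory transcripts, had 4669, 5018 and 3856 bp, then 1570, 1322 and 1212 bp (-1.65 ± 0.16, limma adjusted p of 0.000969). RPS12 had 3992, 3026 and 3971 bp, then 895, 1353 and 1045 bp (-1.66 ± 0.20, limma adjusted p of 0.00249). The arms did not overlap at any of the 3, which were singled out after their values were seen. Centred on library medians, they no longer passed, with adjusted p of 0.061, 0.115 and 0.0563 in limma.

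At the other extreme the arms lay close. RPL41 (chr12:56116633-56117967), which encodes the smallest ribosomal protein, had 4252, 4256 and 4302 bp in shCtrl and 3867, 4004 and 4308 bp in shSATB1, and the log2 difference in length was -0.07 ± 0.10 (limma adjusted p of 0.524). RPL7 had 2387, 2272 and 2523 bp, then 2013, 1961 and 2410 bp (-0.17 ± 0.13, limma adjusted p of 0.273). At both genes the arms overlapped. RPL26 had 5653, 5801 and 5174 bp, then 4481, 4793 and 4733 bp; the arms did not overlap, yet the difference of -0.24 ± 0.11 did not pass (limma adjusted p of 0.106). The windows of RPL41, RPL26 and RPL7 also take in ends of ZC3H10, KRABD2 and RDH10, so a peak there cannot be given to 1 gene alone. Such a protein-coding neighbour lies within 2 kb of 37 of the 81 genes, 45.7% against 36.4% of all genes. Among the 37 are also RPL28, RPL10, RPS29 and RPS6, and RPL5, RPL36 and RPL10A, named above for high CTCF peaks. RPL18, RPL35, RPL23A and RPL13A, named for high SATB1 peaks, belong to them too. The same limit holds for the peaks of all 37.

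**Figure D5:**
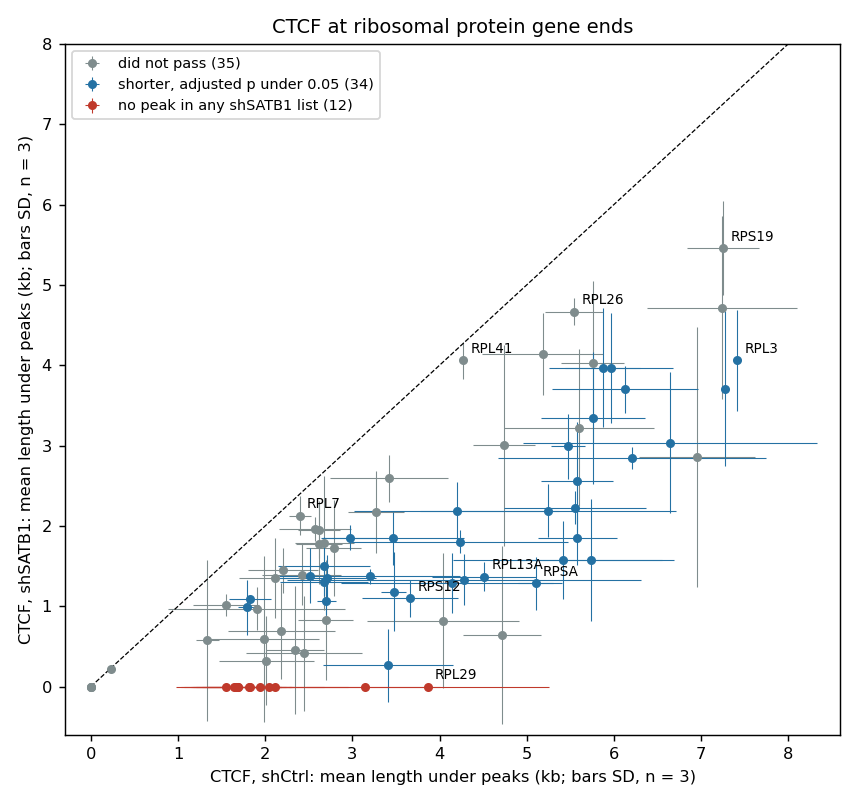
Mean length under CTCF peaks (kb) at each of the 81 ribosomal protein genes in shCtrl (horizontal axis) and shSATB1 (vertical axis), with bars for the SD over 3 libraries in each arm; the dashed line marks equal length and colours mark the 12 genes with no peak in any shSATB1 list, the 34 others shorter at a limma adjusted p under 0.05 and the 35 that did not pass or were not tested. RPL41 and RPL7 lie near the line, while RPSA, RPL13A and RPS12 lie far under it.

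Some control values were at their ceiling. CTCF peaks filled the whole window at 2, 5 and 5 ribosomal protein genes in the 3 shCtrl libraries, against 0 in every other list. Among them were RPS28, filled with 5845 bp in shCtrl replicates 1 and 3, and RPL36, filled with 5581 bp in replicates 2 and 3. The length measured there could not be greater. At longer genes, with a window at each end, a single window could be full too. Around the far ends of RPS19 and RPL3 CTCF peaks filled all 4001 bp in each shCtrl library, so the lengths there were also capped.

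H3K27ac at ribosomal protein genes differed little between the arms. It was called at 71 and 71 genes in shCtrl and 73 and 65 in shSATB1, and was lost at 1 of 68, 1.47% against 2.18% of all genes, kept in all 4 lists at 61, 89.7% against 90.4%, and gained at 0 of 7, against 0.884%. In the limma fit of peak length 1 of 76 genes was lower and 0 were higher at an adjusted p under 0.05, against 1.39% and 0.874% of 8926 genes tested. At an unadjusted limma p under 0.05 there were 5 of 76, 6.58%, against 8.76% of all genes tested. Centring left these counts at 1 and 0 (1.45% and 0.941% of all genes tested), and lists of equal length gave 2 lower and 0 higher (1.41% and 1.28%). Without shSATB1 replicate 1, H3K27ac was lost at 5 of 68 genes, RPL12, RPL31, RPL8 and RPS15 among them, 7.35% against 8.19% of all genes, and without shSATB1 replicate 2 at 3, RPL6 among them, 4.41% against 3.62%. Without shCtrl replicate 2 it was gained at RPL14 and RPL3L, 2 of 10 genes without a call in shCtrl against 1.7% of all such genes, and without shSATB1 replicate 2 at RPL38 and RPS4X, 2 of 7 against 3.36%. The counts of changed length moved as well: without either shCtrl replicate 0 were lower, as were 0 of all genes tested; without shSATB1 replicate 1 there were 2 of 74 lower, against 1.56% of all genes; and without shSATB1 replicate 2 there were 2 of 76 higher, RPL38 and RPS4X, against 3.89%.

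All 10 of the genes that lost CTCF and had H3K27ac in both shCtrl lists were still called for H3K27ac in at least 1 shSATB1 list, RPS6 with 1918 and 1817 bp, then 2383 and 2267 bp. Of all 7744 genes with H3K27ac in both shCtrl lists, 2.18% had no such call in shSATB1, so this count does not set the 10 apart.

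RPS19, the gene most often mutated in Diamond-Blackfan anaemia, had 6251 and 5797 bp under H3K27ac peaks in shCtrl, the greatest length over both ends in the family, and 2723 and 2759 bp in shSATB1. The arms did not overlap, and the log2 difference in length of -1.11 ± 0.11 missed the threshold (limma adjusted p of 0.0917); with windows of 1 kb it passed, with 0.0377. This length was split between the gene's ends: the window around the start held 3062 and 2557 bp in shCtrl and 1311 and 1072 bp in shSATB1, and the window around the far end 3189 and 3240 bp, then 1412 and 1687 bp. The highest H3K27ac peak was at the far end, with its maximum 15184, 16668, 15120 and 15166 bp from the start in the 4 libraries, beyond the 12671 bp gene, so that peak cannot be given to RPS19 alone. CTCF at RPS19 covered 6796, 7592 and 7385 bp, then 4852, 6024 and 5513 bp (-0.41 ± 0.13, limma adjusted p of 0.055). The greatest positive H3K27ac differences were at RPL38, with 0 and 0 bp, then 1580 and 0 bp, at RPS4X, with 0 and 0 bp, then 1032 and 0 bp, and at RPL3L, with 0 and 987 bp, then 1084 and 813 bp. Each rested on 1 library, and none passed (limma adjusted p of 0.713, 0.713 and 0.715).

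RPL5, RPL11, RPL10, RPL22 and RPS14 were examined as further examples, not a full list, of ribosomal protein genes mutated in disease. RPL5, a Diamond-Blackfan gene whose product binds MDM2 together with that of RPL11, had no SATB1 and 2878, 2405 and 2561 bp under CTCF peaks in shCtrl, then 1651, 1866 and 2348 bp (limma adjusted p of 0.0927). RPL11 had neither SATB1 nor H3K27ac in any list, and CTCF over 2363, 2385 and 3287 bp, then 1079, 1750 and 1665 bp. RPL10, mutated in T cell acute lymphoblastic leukaemia, had SATB1 over 1019 and 960 bp and CTCF over 5556, 3515 and 3521 bp, then 2028, 1910 and 2601 bp. For RPL10 and RPL11 the arms did not overlap and the CTCF length passed (limma adjusted p of 0.0359 and 0.0479), but RPL10 lost the call on leaving out any library but shSATB1 replicate 3 and RPL11 on leaving out any of the 6. RPL22, deleted or mutated in the same leukaemia, had no SATB1, and CTCF over 6790, 6394 and 7689 bp, then 1011, 3564 and 4009 bp (limma adjusted p of 0.0752, and 0.0136 without shSATB1 replicate 1). RPS14, the gene of the 5q- syndrome, had SATB1 over 832 bp in both lists and CTCF over 3166, 3048 and 6619 bp, then 1004, 1647 and 1345 bp (limma adjusted p of 0.0258, but 0.0651 without shSATB1 replicate 1, 0.0948 with windows of 1 kb and 0.226 after centring).

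The tissue-restricted and variant paralogs were not alike. RPL3L, the muscle form of RPL3, had SATB1 over 497 and 629 bp and CTCF over 2316, 1762 and 2538 bp, then 1135, 1536 and 1667 bp (limma adjusted p of 0.0748). Its windows also take in an end of MSRB1, so these peaks cannot be given to RPL3L alone. RPL39L, a form found mainly in testis and some tumours, had all 4 proteins and marks, with H3K27ac over 2676 and 2185 bp in shCtrl and CTCF over 2710, 2889 and 3311 bp, then 1935, 1679 and 1949 bp (limma adjusted p of 0.0167, but 0.385 with windows of 1 kb and 0.342 after centring, where the difference turned positive). RPS27L, a p53-responsive form of RPS27, had SATB1 over 1218 and 1219 bp and CTCF over 2442, 1648 and 2247 bp, then 783, 1723 and 1552 bp (limma adjusted p of 0.137). RPL10L, the testis form of RPL10, had no peak in any list.

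Of the 81 genes, 3 had no peak in any of the 14 lists, 3.7% against 34.7% of all protein-coding genes: RPL10L, RPS9 and RPS18. RPL10L lay 887 kb from the nearest peak, with 1 protein-coding gene within 500 kb, also without a peak. RPS9 and RPS18, both of the small subunit, lay 175 and 235 kb from the nearest peak. Of the genes within 500 kb of them, 30 of 34 and 30 of 35 had no peak in any list either, 88.2% and 85.7%. Why whole stretches around these 2 genes held no peaks was not tested, and their lack of calls is no measure of their activity. RPL11 had no H3K27ac in any list either.

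Related genes of protein synthesis were compared through lists. Of 77 mitochondrial ribosomal protein genes, which serve a separate ribosome, 27 had SATB1 in both lists, 35.1%, CTCF was lost at 12 of 69, 17.4%, and H3K27ac at 2 of 59, MRPL39 and MRPL58. Of 20 translation factor genes, 14 had SATB1 in both lists, 70.0%, and CTCF was lost at 2 of 19, EIF4G1 and EIF3E, both of translation initiation. Of 25 ribosome biogenesis genes, 12 had SATB1, 48.0%, and CTCF was lost at 1 of 23, GAR1, a protein of the H/ACA snoRNA particles. Of 7 cytosolic ribosomal protein genes whose names fall outside the rule, 4 had SATB1, 57.1%, and CTCF was lost at 0 of 5. Over all protein-coding genes SATB1 was in both lists at 24.5%, and at 57.5% of those with H3K27ac in both shCtrl lists. CTCF was lost at 14.8% and H3K27ac at 2.18% of genes called in every shCtrl list. No gene of these 4 lists gained CTCF, nor did any protein-coding gene (0.0%). None gained H3K27ac either, against 0.884% of all genes without a call in shCtrl. Differences between the lists were not tested.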

How the data were processed

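CUT&Tag peak lists of 14 Jurkat libraries were analysed. SEACR made the peaks on GRCh38, after Trim Galore, Bowtie2, SAMtools and deepTools, per the submitters' processing notes, which add MACS2 except for Matrin 3; the sources used here give no versions, alignment filters or control libraries. Each library was called by itself, and the authors deposited for each peak its position, its summed signal and its highest signal, without a recorded scaling, so signal was used only to rank peaks within a list. Peaks are no read counts, and the depth of each library is unknown. Peaks off chromosomes 1 to 22 and X were left out, 405 of 273747 (0.148%).

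Genes and coordinates came from RefSeq (GRCh38.p14), strand and promoter sequence from its promoter table. Windows reached 2 kb to either side of each annotated end, and the bases under peaks were summed per gene (Python 3.11.15, pandas 2.3.3). CTCF and H3K27ac lengths were compared in separate fits of log2(bp + 100) with limma 3.58.1 in R 4.3.3, for genes with a mean of at least 200 bp over the libraries fitted, with Benjamini-Hochberg adjustment over all genes tested and a threshold of 0.05. Both steps were tested on simulated data. The genes and lists were chosen with earlier results of these data known, so no p is given for a list. Genes were named if lost or gained, if among the 5 greatest length changes past the threshold per direction and mark (or the 3 greatest where none passed), if among the 10 with the highest SATB1 percentile, if without H3K27ac or CTCF, if in the shorter Matrin 3 list, or if known disease genes or paralogs; RPSA, RPL13A, RPS12 and RPL26 were further examples, and some genes are counted but not reported here by name. Alternatives were other windows, offsets, filters, scaling, list lengths, a replicate block and leaving out each library.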

Additional observations from a re-analysis of the deposited data

How the results depend on the processing

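The count of 12 genes with lost CTCF lay between 8 and 17 under the other windows, a 200 bp overlap, gene starts alone, peaks above each list's median, the list without paralogs and leaving out each library, and was 2 with lists of equal length. The share lost over all genes was 13.6% where the count was 8 and 20.5% where it was 17. The 46 genes with shorter CTCF peaks became 12 after centring (with 5 longer), 28 with a replicate block, 23 with lists of equal length and 29 to 55 on leaving out a library. The share of all genes tested moved from 42.8% to 25.9% with the block. It was 28.2% where the count was 29 and 49.6% where it was 55. Other offsets, no filter and 1 kb windows kept the count of 46 within 1.5 times. Libraries with the same replicate number showed no shared deviation in length (correlations of deviations from -0.02 to 0.007). This cannot tell whether they were handled as pairs. The block also ended the CTCF calls at RPL10 (limma adjusted p of 0.0856), RPL11 (0.07), RPS14 (0.0577) and RPL39L (0.0627). Centring reversed the log2 difference in CTCF length, from below to above 0, at RPL41 (0.84), RPL7 (0.75), RPL26 (0.67), RPL5 (0.50), RPL10 (0.02), RPL11 (0.11), RPS19 (0.51), RPL3L (0.34), RPL39L (0.27) and RPS27L (0.26). For H3K27ac, lost genes numbered 0 with gene starts alone, 2 with equal lists, 2 above the list medians and 1 to 5 on leaving out a library, and gained genes 2 above the list medians and 0 to 2. Over all genes the first 3 of these lost shares were 1.9%, 2.14% and 4.98%, and 1.13% were gained above the list medians. The 1 gene with shorter H3K27ac peaks became 0 with the replicate block, 2 with equal lists, 2 with 1 kb windows and 0 to 2 on leaving out a library; longer ones were 0 to 2. H3K27ac length at RPL3L ran from -0.06 to 3.38 on leaving out a library. SATB1 was at 22 genes above the list medians. Matrin 3 in both lists was at 10 genes, at 2 above the list medians, and at 10 to 72 in either list alone. For the SATB1 and Matrin 3 counts above the list medians no share over all genes is given. Where leaving out a library left an arm with 1, that library was assumed to vary like the others. Except where a list length or strand sets the change, the cause was not tested. Read totals were not used, so differences in depth between arms cannot be told apart from the knockdown.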
